A study of Drosophila melanogaster with 3 samples.

Results

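Of 3511 reproducible binding regions (peaks) of a CG8944-eGFP fusion protein in Drosophila melanogaster embryos, 604 (17.2%) lay in introns far from any annotated start of transcription. They were chosen by position alone. The summit, the authors' point of highest signal in a peak, had to be more than 2000 bp from the nearest transcription start, inside an annotated gene and in no annotated exon. Each of the 604 met these conditions and all are counted here, with no further filter. The gene around a peak is called its host.

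Introns are removed from the transcript by splicing, but as DNA they can carry control elements. In flies, long introns of developmental genes often hold enhancers, short stretches where transcription factors bind and from which they act on a promoter some distance away. An intronic site need not act on its host, since enhancers can act on a neighbouring gene, and binding alone does not make a site an enhancer.

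The samples were 3 biological replicates of 1 group, 0 to 24 h old male and female embryos of 1 transgenic line that stably expresses CG8944 with GFP at its C terminus. All replicates share the line and the transgene, and the fusion may differ in level from the protein of an unmodified fly. Chromatin sheared by sonication to 200 to 800 bp was recovered with an antibody against GFP (chromatin immunoprecipitation with sequencing, ChIP-seq). Whole embryos were used, so that the cell types in which a site was bound cannot be told apart. There was no second condition, and the control alignment of the authors' peak calling was not analysed here. The lists hold no read counts, so depth is unknown and no counting interval could be given.

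The DNA at the summits shows what these regions look like. The bases within 50 bp of the summits of the 6 strongest peaks outside the right arm of chromosome 2 follow, from the dm6 reference, with the central 21 bases in capitals.
Tlk (chrX:3742189-3742289, plus strand): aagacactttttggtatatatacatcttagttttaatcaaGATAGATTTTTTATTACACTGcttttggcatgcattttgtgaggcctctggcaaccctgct
Raf (chrX:2297683-2297783, plus strand): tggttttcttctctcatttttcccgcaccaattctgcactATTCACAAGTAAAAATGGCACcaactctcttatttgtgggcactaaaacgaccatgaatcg
CG32486 (chr3L:3060728-3060828, plus strand): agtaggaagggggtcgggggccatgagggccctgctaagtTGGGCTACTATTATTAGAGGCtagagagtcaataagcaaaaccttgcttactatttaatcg
Gug (chr3L:8458268-8458368, plus strand): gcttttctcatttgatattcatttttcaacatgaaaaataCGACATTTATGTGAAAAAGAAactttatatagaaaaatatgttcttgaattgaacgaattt
Pak3 (chr3R:16449341-16449441, plus strand): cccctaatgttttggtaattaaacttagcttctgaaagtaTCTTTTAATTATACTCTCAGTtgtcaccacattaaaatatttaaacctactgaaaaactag
upSET (chr3L:14005036-14005136, plus strand): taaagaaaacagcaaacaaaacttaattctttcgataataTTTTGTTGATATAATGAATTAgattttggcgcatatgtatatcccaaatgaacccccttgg
At Gug, Pak3 and upSET 22.8%, 28.7% and 29.7% of these bases were G or C. At Tlk the share was 34.7% and at Raf 40.6%, and at CG32486 it was 47.5%. All sequence that meets the positional rule averaged 40.01%.

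A second set shows an arrangement that recurred around the summits. At 76 of the 604 peaks (12.6%) the short words CACTGAGA, ACAGTG and ACACTG stood on both sides of the summit and pointed toward it. Pointing inward means on the plus strand to the left of the summit and on the minus strand to its right. At 322 of the 604 there was no inward word. The 4 strongest peaks outside the same arm with such words on both sides are printed over 120 bp on either side of the summit, with every inward word in capitals. A word on the minus strand appears as its reverse complement, CAGTGT for ACACTG and CACTGT for ACAGTG.
Gug (chr3L:8458198-8458438, plus strand): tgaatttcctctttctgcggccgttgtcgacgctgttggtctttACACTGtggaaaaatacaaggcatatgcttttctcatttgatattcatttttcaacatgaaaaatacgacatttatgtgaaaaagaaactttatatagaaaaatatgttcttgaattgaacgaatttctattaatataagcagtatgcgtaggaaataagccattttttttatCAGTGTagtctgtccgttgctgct
aos (chr3L:16480449-16480689, plus strand): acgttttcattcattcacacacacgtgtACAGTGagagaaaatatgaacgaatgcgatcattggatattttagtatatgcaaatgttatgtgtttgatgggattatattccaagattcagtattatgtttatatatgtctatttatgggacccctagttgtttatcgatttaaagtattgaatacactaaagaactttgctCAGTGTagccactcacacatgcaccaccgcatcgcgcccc
CG32264 (chr3L:3785088-3785328, plus strand): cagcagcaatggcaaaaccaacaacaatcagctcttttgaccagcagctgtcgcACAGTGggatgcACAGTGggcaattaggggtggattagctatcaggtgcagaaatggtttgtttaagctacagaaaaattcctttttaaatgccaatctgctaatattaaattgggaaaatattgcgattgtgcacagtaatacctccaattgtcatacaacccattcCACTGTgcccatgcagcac
CHES-1-like (chrX:7700295-7700535, plus strand): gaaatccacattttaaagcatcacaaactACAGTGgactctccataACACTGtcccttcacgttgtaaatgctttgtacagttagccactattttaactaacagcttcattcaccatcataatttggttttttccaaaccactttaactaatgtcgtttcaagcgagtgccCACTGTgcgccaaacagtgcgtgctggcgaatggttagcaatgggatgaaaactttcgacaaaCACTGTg
At each of these 4 peaks the bases within 50 bp of the summit held less G or C than the other printed bases. At Gug the bases within 50 bp of the summit held 22.8% G or C and the printed bases outside them 40%, and at aos the values were 28.7% and 42.1%. At CG32264 they were 35.6% and 47.9%, and at CHES-1-like 36.6% and 44.3%. A low value was not limited to such peaks. Over the 604 the mean within 50 bp was 33.6% with inward words on both sides, 33.5% with them on 1 side and 36.4% with none.

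The longest of the words, CACTGAGA, is aligned in another set. The 8 strongest peaks with an inward copy, again outside that arm, are printed over 100 bases read so that the summit lies to the right of the word, which is in capitals.
ImpL2 (chr3L:4230372-4230471, plus strand): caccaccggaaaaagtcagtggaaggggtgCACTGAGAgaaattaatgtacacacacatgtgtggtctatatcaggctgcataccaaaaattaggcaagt
CG6959 (chr3R:11849844-11849943, minus strand): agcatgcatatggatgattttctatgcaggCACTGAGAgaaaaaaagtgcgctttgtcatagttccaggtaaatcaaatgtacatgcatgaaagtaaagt
aop (chr2L:2163666-2163765, minus strand): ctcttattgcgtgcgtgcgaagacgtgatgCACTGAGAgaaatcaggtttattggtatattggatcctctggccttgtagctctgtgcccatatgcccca
bves (chrX:21059072-21059171, plus strand): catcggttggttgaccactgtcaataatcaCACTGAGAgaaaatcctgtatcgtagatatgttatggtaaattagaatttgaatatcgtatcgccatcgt
pnt (chr3R:23326382-23326481, plus strand): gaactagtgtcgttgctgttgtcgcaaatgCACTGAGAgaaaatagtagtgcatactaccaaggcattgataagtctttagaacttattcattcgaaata
cno (chr3R:5212493-5212592, minus strand): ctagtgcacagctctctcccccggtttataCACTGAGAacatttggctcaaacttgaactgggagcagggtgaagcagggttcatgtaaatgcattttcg
CG43759 (chrX:19018163-19018262, plus strand): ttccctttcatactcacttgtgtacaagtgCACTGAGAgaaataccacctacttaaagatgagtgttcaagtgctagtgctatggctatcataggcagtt
Fas3 (chr2L:18325192-18325291, plus strand): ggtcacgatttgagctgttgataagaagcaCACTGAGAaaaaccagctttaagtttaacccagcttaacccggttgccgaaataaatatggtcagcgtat
In 7 of these 8 the word ran on into GAAA or AAAA. Over the 65 copies within 150 bp of a summit of the 604 peaks, GAAA followed in 31 and AAAA in 16. The 50 bases after the word held 32.4% G or C against 46.8% in the 50 bases before it. Since 60 of the 65 copies pointed inward, the bases after the word mostly lie on the summit side. This contrast is therefore not separate from the low share of G or C at the summits.

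The distal intronic peaks were of moderate strength within the reproducible set. The signal is the authors' value for each peak, on a scale that is not given, and is used only to rank peaks within a list. Its median in the pooled list was 163 for the 604 peaks, with quartiles of 127 and 234, against 184 at promoters (summit within 500 bp of a start) and 175 over all 3511. Only 3 of the 100 strongest reproducible peaks were distal intronic, while 69 were at promoters, 19 in introns closer to a start, 7 intergenic and 2 in exons. Of the 604, 52 were among the 500 strongest.

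The same ordering was seen in each replicate. In the lists of replicates 1, 2 and 3 the median percentile rank (100 for the strongest entry of the list) of the distal intronic peaks was 93.8, 93.7 and 92.5, and that of promoter peaks 94.6, 94.9 and 94.5. The difference was -1.35 ± 0.558 percentile points (SD, n = 3), lower in 3 of 3 replicates. An exact two-sided sign-flip permutation test over the 3 replicates gave p = 0.25, the smallest it can give, so that the design cannot reach a threshold of 0.05. Against intergenic peaks the difference was -0.296 ± 0.402 points (SD, n = 3), smaller than its spread and of mixed sign (exact permutation p = 0.5).

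A smaller share of candidate entries was reproducible here than over all positions. Over the whole pooled relaxed list of 23886 entries, 14.7% were reproducible peaks. In distal introns it was 604 of 5267 entries (11.5%), in introns nearer to a start 19.3% and at promoters 27.6%. Intergenic entries stood at 10.97%, close to the distal intronic value. The 604 peaks amounted to 14.6 per Mb of the 41.4 Mb of sequence that meets the rule, against 11.6 per Mb between genes, 43.2 in the nearer introns and 105 at promoters. Among the 3511 strongest entries of each replicate, distal introns held 17.0% ± 0.518 (SD, n = 3), or 14.4 ± 0.439 per Mb.

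Replicates agreed on most of the sites. An overlap with one of the 3511 strongest entries in all 3 replicates was found for 70.0% of all reproducible peaks and for 390 of the 604 (64.6%). A further 138 had it in exactly 2 replicates, 73 in 1 and 3 in none. Over the 604 peaks Spearman's rho of the signal was 0.697 for replicates 1 and 2, and over the 603 peaks with an entry in replicate 3 it was 0.672 with replicate 1 and 0.722 with replicate 2. These values describe peaks that were selected from the same replicates for agreement.

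The strongest distal intronic peak lay in Tlk, which encodes Tousled-like kinase, a regulator of chromatin assembly (FBgn0283657, chrX:3742050-3742396). Its signal was 409, 398 and 400 in replicates 1, 2 and 3, and its rank in those lists 34, 41 and 29. The summit was 2342 bp downstream of a start of Tlk, in a 41450 bp intron. Next was a peak in Raf, the kinase between Ras and MEK in the MAP kinase cascade (FBgn0003079, chrX:2297566-2297879), with signals of 335, 426 and 331 and a start of Raf 2267 bp away. Next came a peak in CG32486 (FBgn0266918, chr3L:3060647-3060940), with 323, 349 and 307, and its nearest start, 5699 bp away, belongs to another gene, CG16753. These 3 stood apart from the rest in every replicate.

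**Figure D1:**
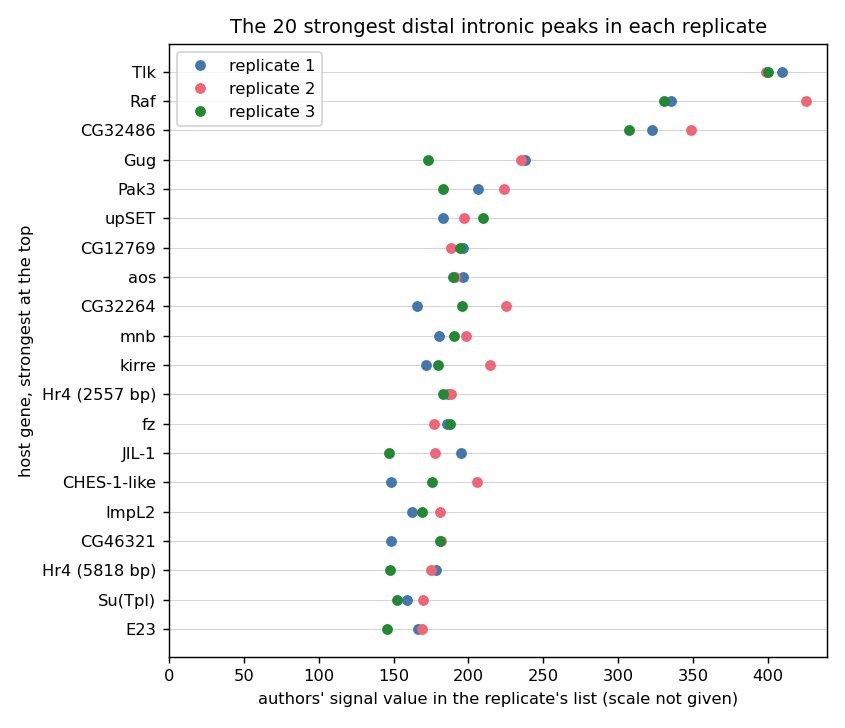
Signal of the 20 strongest distal intronic peaks (rows, named by the host with the shortest intron around the summit, Hr4 also by the distance to the nearest start) in the peak list of each of the 3 replicates (points; horizontal axis, the authors' signal value, scale not given). The peaks in Tlk, Raf and CG32486 lie to the right of the other 17 in all 3 replicates.

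From the fourth peak on, signals fell in a narrower range. Gug, which encodes the co-repressor Atrophin (FBgn0010825, chr3L:8458187-8458462), had 238, 235 and 173 in replicates 1 to 3, and Pak3, a p21-activated kinase gene (FBgn0044826, chr3R:16449226-16449524), had 206, 224 and 183. At upSET, a chromatin gene with a SET domain (FBgn0036398, chr3L:14004945-14005200), they were 183, 197 and 210. The replicate order differed from site to site, and no replicate was highest at all of them.

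Several of the 20 strongest peaks had hosts that act in signalling. The secreted EGF receptor inhibitor gene aos (FBgn0004569, chr3L:16480444-16480709) had signals of 197, 191 and 190, with its own start 3081 bp away; the gene CG33158 also spans this site. The DYRK kinase gene mnb (chrX:17880336-17880590) had 181, 198 and 190. At fz, which encodes the Wnt and polarity receptor Frizzled (FBgn0001085, chr3L:14303957-14304181), they were 186, 177 and 188, and this summit was the one of the 20 farthest from any start, at 22180 bp. ImpL2, a gene for a secreted insulin-binding protein (FBgn0001257, chr3L:4230413-4230616), had 162, 181 and 169.

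Nuclear receptor and chromatin genes were hosts in the same set. The nuclear receptor gene Hr4 (FBgn0264562) held 2 of the 20, at chrX:1951786-1952013 with 186, 188 and 183 and at chrX:1947618-1947866 with 178, 175 and 147. A peak at chr2R:10219922-10220186, with 149, 182 and 181, lay inside CG46321, CG12912 and Hr3, another nuclear receptor gene. JIL-1, a kinase that phosphorylates histone H3 (FBgn0020412, chr3L:11084642-11084884), had 195, 178 and 147. A peak with 159, 169 and 152 (chr3L:19903171-19903373) lay inside both Su(Tpl), an elongation factor gene of the ELL family, and Mi-2, which encodes a nucleosome remodeller. The forkhead gene CHES-1-like (FBgn0029504, chrX:7700292-7700513) had 148, 206 and 175.

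The rest of the 20 were in kirre (chrX:3097079-3097329), a gene for an adhesion protein of myoblast fusion, in E23 (chr2L:3338896-3339099), an ABC transporter gene, and in CG12769 and CG32264. All 20 overlapped one of the strongest entries in all 3 replicates, and the lowest rank of any of them in a replicate was 306. They were 203 to 347 bp wide, whereas 87.1% of the 604 had the common width of 400 bp.

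The limit of the rule cuts through a continuous range of distances. The 3 peaks just inside it were in bol at 2004 bp (pooled signal 152), in lncRNA:CR44320 at 2007 bp (354) and in CG43658 at 2009 bp (131). Just outside were intronic peaks in Kdm2 at 1999 bp (247), px at 1984 bp (116) and CG32264 at 1976 bp (122). Over the 604 the median distance was 5082 bp, with quartiles of 3198 and 8757 bp. The sequence that meets the rule had a median of 8001 bp, and the 4594 weaker entries in it a median of 6156 bp (weaker entries are those of the pooled relaxed list that overlap no reproducible peak).

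Density fell with distance. There were 22.3 peaks per Mb between 2000 and 5000 bp from a start, 17.3 from there to 10000 bp, 9.57 to 20000 bp and 6.82 to 60000 bp. The 3.22 Mb farther out held none, and 12 weaker entries. The strongest entries of each replicate gave the same order of bins, with 22.4, 22.5 and 21.6 per Mb in the nearest and 6.27, 7.00 and 7.00 between 20000 and 60000 bp. Weaker entries fell too, from 143 to 68.4 per Mb over these bins.

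Density was highest in introns of middle length. It was 19.5 peaks per Mb in introns of 5000 to 10000 bp, 18.9 up to 20000 bp and 16.6 up to 40000 bp. Shorter introns had 10.4 per Mb and longer ones 9.29. In replicates 1, 2 and 3 both outer bins lay between 8.36 and 10.7 per Mb and the 3 inner ones between 15.8 and 19.97, without overlap. The intron, taken as the shortest one around the summit, had a median length of 14641 bp and a range from 349 to 126467 bp. Weaker entries had a median of 13886 bp. Their density had the same shape, at 102, 135, 141, 115 and 71.3 per Mb from the shortest to the longest bin, and the reproducible share of entries ran only from 9.20% to 12.6% over these bins.

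**Figure D2:**
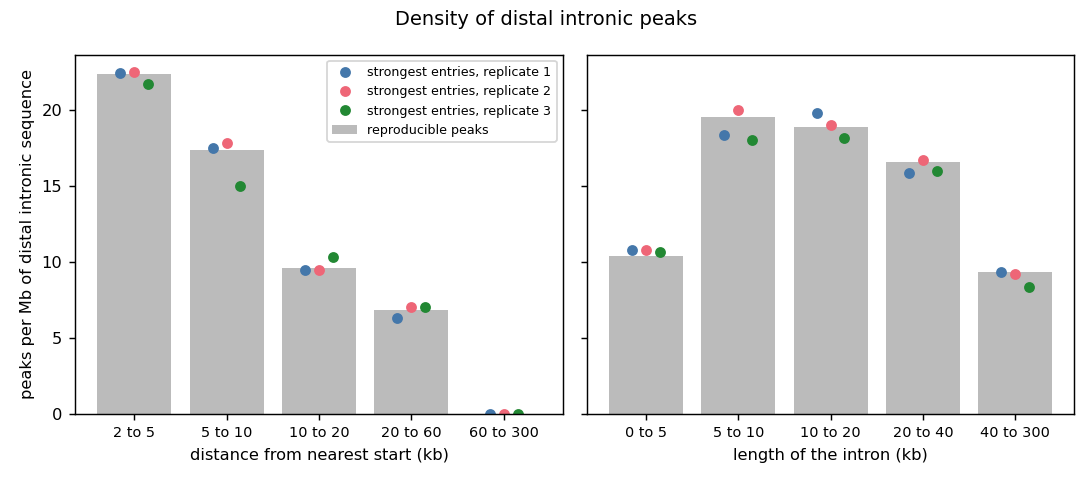
Distal intronic peaks per Mb of sequence that meets the rule (vertical axis), by distance of the summit from the nearest start (left, kb) and by length of the intron (right, kb). Bars are the 604 reproducible peaks and points the strongest entries of each replicate; density falls from 22.3 per Mb nearest to a start to 0 beyond 60 kb, and is lower in the shortest and longest introns than in those between.

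Peaks sat in first introns more often than the sequence did. The first intron of the longest transcript held 248 of the 604 peaks (41.1%), while 25.3% of the sequence that meets the rule is first intron in this sense. Weaker entries stood between, at 33.3%. The strongest entries of the replicates gave 41.6% ± 1.41 (SD, n = 3). Second introns held 36.3% of peaks and 27.2% of the sequence. Counting a first intron in any transcript, the share was 61.6% of peaks and 37.6% of the sequence.

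For 413 of the 604 peaks (68.4%) the nearest start belonged to a gene that also contained the peak. Among weaker entries this share was 59.1%, and in the strongest entries of the replicates 68.8% ± 1.41 (SD, n = 3). Of those 413 summits, 318 were downstream of that start and the others upstream of a start inside the host. For the other 191 the nearest start belonged to a neighbour or to a gene nested in the intron, as at fz, where it was lncRNA:CR45025, and at mnb, where it was CG12985.

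The peaks fell in 391 genes, of which 378 are protein-coding. Of the 4333 genes with sequence that meets the rule, 9.02% held a peak. Most hosts, 251, had 1 peak, 78 had 2 and 62 had 3 or more. In 33 cases the summit was inside more than 1 gene. Some host genes had a reproducible peak at one of their promoters as well. This held for 137 of 391 hosts (35.0%), against 21.9% of all 4333 genes and 20.6% of the 3942 that were not hosts. Any start of a gene counted, and genes were not matched for length or number of starts. The gene with the nearest start had a reproducible peak at one of its promoters, not always at that start, for 192 of the 604 peaks (31.8%). Among the weaker entries this share was 21.1%. At 413 of the 604 peaks that gene is also a host, so this count is not separate from the one for hosts.

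The gene with most peaks was kirre (FBgn0028369, chrX:2740384-3134532), with 9 in 0.288 Mb of qualifying sequence, or 31.3 per Mb. Their pooled signals ran from 116 to 569, and the strongest was 2351 bp upstream of a start within the gene. The peak of lowest signal had 15.4, 52.1 and 51.7 in replicates 1, 2 and 3, so that replicate 1 stood below the others there. At the strongest, with 172, 215 and 180, replicate 2 was the highest.

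Raf (chrX:2295466-2343870) held 7 peaks in a single intron of 43637 bp, where only 3 weaker entries were found. Of these, 6 stood in a row between 2267 and 11109 bp from the start of Raf. Their signals in replicates 1, 2 and 3 were 335, 426 and 331 at 2267 bp, 82.7, 70.9 and 77.6 at 3702 bp, and 151, 129 and 144 at 5256 bp. At 6797 bp they were 103, 97.9 and 94.4, at 8602 bp 153, 173 and 111, and at 11109 bp 68.8, 31.7 and 47.3. The site nearest to the start was the highest of the row in every replicate and the site at 11109 bp the lowest, and signal did not fall steadily between them.

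Hr4 (chrX:1941940-2007956) had 6 peaks in 4 introns, all of which overlapped the strongest entries of all 3 replicates. Their pooled signals ran from 192 to 565, and 5 weaker entries lay in the same gene. The zinc-finger co-factor gene ush (FBgn0003963, chr2L:476220-540560) also had 6, in 3 introns, from 115 to 357. The strongest of these had 163, 103.5 and 78.0 in replicates 1, 2 and 3. The long non-coding gene lncRNA:CR44357 (FBgn0265457, chrX:7166451-7405797) had 6, of which 4 lay also inside CG1677 (FBgn0029941).

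In sbb, which encodes the co-repressor Scribbler (FBgn0285917, chr2R:18278198-18357296), 8 peaks lay in 1 intron of 49364 bp. Their pooled signals ran from 111 to 345. The first 2 of them overlap and matched the same entry in each replicate, so they are not separate sites there. Neighbouring peaks this close were rare, with 8 pairs of summits within 300 bp over the 604, and 51 more within 2000 bp.

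The peaks farthest from a start were in hth, a homeodomain gene (FBgn0001235). One at chr3R:10564251-10564650 was 49825 bp from a start, with 52.7, 109 and 69.1 in replicates 1, 2 and 3. The other, at chr3R:10560549-10560948, was 47616 bp from the start of mir-4944, with 26.5, 50.3 and 47.4. Next came a peak in mamo, a zinc-finger gene (FBgn0267033, chrX:13890831-13891230), at 42312 bp with 71.2, 50.2 and 41.2. At hth replicate 1 was the lowest at both sites. The longest introns with a peak were in Ptp61F, a tyrosine phosphatase gene (126467 bp), in kirre (121519 bp) and in the zinc-finger gene jing (110416 bp).

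Hosts were grouped by 12 lists of developmental and other genes, and counted against 9.02% of all genes with qualifying sequence and against the overall 14.6 peaks per Mb. Long introns give a gene more room, so the density per Mb is given beside the share of genes. Density itself fell with distance from a start and was lower in the shortest and longest introns, so it is not corrected for intron length. Chromatin regulators had the highest density, 82.7 per Mb, with 12 peaks in 7 of 45 genes (15.6%) and only 0.145 Mb of sequence. This list is not complete, since it lacks upSET and JIL-1, chromatin genes named above. The sites were in Mi-2 and in the co-repressor gene Smr (134, 141 and 111 in replicates 1, 2 and 3), in trx, a histone methyltransferase gene (148, 133 and 108), and in the Polycomb group gene Psc (pooled signal 290), among others.

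Nuclear receptors followed, with 52.6 per Mb and 17 peaks in 5 of 15 genes (33.3%). Besides Hr4 with 6 and Hr3 with 2 of these, Eip75B, an ecdysone-induced receptor gene, held 4, with 81.5, 102 and 82.2 at its strongest site, and ftz-f1 held 4, with 44.4, 44.6 and 57.1 at its strongest. The last was in EcR, the ecdysone receptor gene (pooled signal 125), named here to complete the count. Ets, Runt, forkhead, T-box and bZIP factors had 38.1 per Mb, with 19 peaks in 11 of 40 genes (27.5%). The list as drawn up also held genes of other families, among them the hosts Mef2, bs and grh, and without all such genes it had 14 peaks in 8 of 32 genes and 34.1 per Mb. The Ets repressor gene aop had 150, 150 and 116, the Ets activator gene pnt 101.4, 156 and 90.8, and the bZIP gene Pdp1 129, 107 and 104.3.

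Signalling ligands and receptors had 30.1 per Mb, with 27 peaks in 20 of 55 genes (36.4%), the highest share of genes of any list. After fz came the receptor gene N (96.9, 152 and 142), the glypican gene dlp (132, 108 and 99.2) and the PDGF/VEGF-type ligand gene Pvf3 (117, 108 and 98.3). Kinases, phosphatases and small GTPase regulators had 27.3 per Mb, with 29 peaks in 18 of 63 genes (28.6%), of which 7 were those in Raf. Without phosphodiesterase genes (dnc and Pde11 among the hosts), scaffold genes (scrib) and the like, which are of none of these families, 25 peaks in 15 of 54 genes gave 38.3 per Mb. The phosphatase subunit gene wdb, the kinase gene msn and foraging (for), a cGMP-dependent kinase gene, had pooled signals of 293, 280 and 261. The list lacks the kinase genes Tlk, Pak3, mnb and JIL-1, whose stronger peaks are named above. Its values therefore describe the listed genes and not all kinase hosts.

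Basic helix-loop-helix and HMG factors had 24.9 per Mb, with 9 peaks in 7 of 23 genes, among them crp, Myc, sim and Mnt at pooled signals of 286, 252, 226 and 224. Zinc-finger factors, once lilli (an AF4 family gene), psq and other genes without zinc fingers that stood in the list by mistake are left out, had 20.7 per Mb with 17 peaks in 8 of 43 genes. The peak in ken, at 401, was stronger than any in ush. As drawn up, the list had 18.8 per Mb with 19 peaks in 10 of 48 genes. Homeodomain factors without Pdp1, a bZIP gene, and the paired-domain genes Poxm and Poxn had 15.4 per Mb with 13 peaks in 6 of 47 genes, close to the overall density, led by ct at 301. As drawn up they had 16.8 per Mb with 15 peaks in 7 of 50 genes. These corrections were made after the values were seen.

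The last 4 lists lay under the overall density. Axon guidance and cell adhesion genes had 11.5 per Mb with 34 peaks in 15 of 78 genes (19.2%), so that many hosts went with a low density in long introns. After kirre, the strongest were in the adhesion genes ed and Fas3 and in the guidance ligand gene sli, at 329, 266 and 247. RNA-binding and splicing regulators had 7.91 per Mb with 12 peaks in 9 of 33 genes, led by shep (414) and Rbfox1 (289). Ion channels and neurotransmitter receptors had 2.91 per Mb with 4 peaks in 4 of 67 genes, the calcium channel genes Ca-beta and Ca-alpha1T and the potassium and cation channel genes Irk1 and Ih. Cytoskeleton and motor genes had 2.74 per Mb with 1 peak, in the fascin gene sn.

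Weaker entries varied less between the lists. They ranged from 54.6 per Mb at ion channels to 269 at chromatin regulators, against 111 over all qualifying sequence. The share of entries that were reproducible was 23.5% at chromatin regulators, 19.8% at nuclear receptors, 5.06% at ion channels and 1.96% at cytoskeleton genes. The counts behind the last values are small, and no test was made on lists that were drawn up with earlier results of these data known.

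The X chromosome held more of these peaks than its share of sequence. It had 165 of the 604 (27.3%) and 19.3% of the qualifying sequence. The density was 20.6 per Mb on X, and on the autosomes 15.7 on 2L, 14.02 on 2R, 13.2 on 3L and 11.6 on 3R. Chromosome 4, with 0.445 Mb, held none and 22 weaker entries. X was 1.57 times as dense as the autosomes together (13.1 per Mb). In the strongest entries of replicates 1, 2 and 3 this ratio was 1.37, 1.61 and 1.56 (1.51 ± 0.125, SD, n = 3), and X was the densest arm in each.

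Intronic peaks within 2000 bp of a start had a like ratio of X to autosomes, 1.45. For weaker distal intronic entries it was 0.839, 0.827 and 0.833 in the 3 replicates, below 1 in each. Promoter peaks had 0.989 and intergenic peaks 0.861. Hosts with 5 or more peaks numbered 5 on X and 4 on the autosomes. With all 9 left out, an alternative chosen after the data were seen, 132 peaks remained on X at 17.7 per Mb and 415 on the autosomes at 12.51 per Mb. The ratio was then 1.41, and 1.20, 1.49 and 1.41 in replicates 1, 2 and 3 (1.37 ± 0.151, SD, n = 3), above 1 in each.

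**Figure D3:**
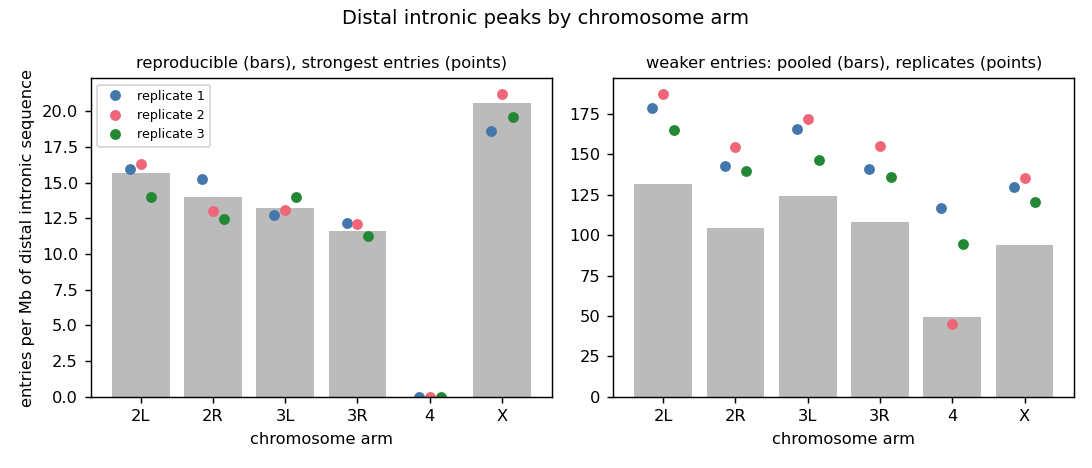
Entries per Mb of sequence that meets the rule (vertical axes) by chromosome arm. On the left bars are the 604 reproducible distal intronic peaks and points the strongest entries of each replicate, highest on X at 20.6 per Mb; on the right bars are weaker entries of the pooled list and points those of each replicate, where X at 93.8 per Mb lies below the 2L value of 132.

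Base composition at the summit differed between the strong and the weaker entries. Within 50 bp of the summit the 604 peaks averaged 35.0% G or C and the 4594 weaker entries 42.9%. In replicates 1, 2 and 3 the strongest distal intronic entries had 35.3%, 35.7% and 35.1%, and the weaker ones 42.4%, 44.4% and 42.6%. The difference was -7.75 ± 0.865 percentage points (SD, n = 3), lower in 3 of 3 replicates, and the groups of replicate means did not overlap (exact two-sided sign-flip permutation p = 0.25, again the smallest possible). Intronic peaks closer to a start had 34.8%, intergenic peaks 36.3% and promoter peaks 38.1%.

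The dip was narrow. In bins of 20 bp the mean fell to 33.8% at the summit and was back at 44.1% by 130 bp upstream and 43.6% by 130 bp downstream. Farther out, between 150 and 230 bp, the 604 peaks had 43.5% to 44.9%, so that they were not low in G or C as regions. Weaker distal intronic entries ran flat at about their mean, between 42.5% and 43.7% within 230 bp. Promoter peaks had a broader and shallower dip, and intergenic peaks one much like that of the distal intronic peaks.

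**Figure D4:**
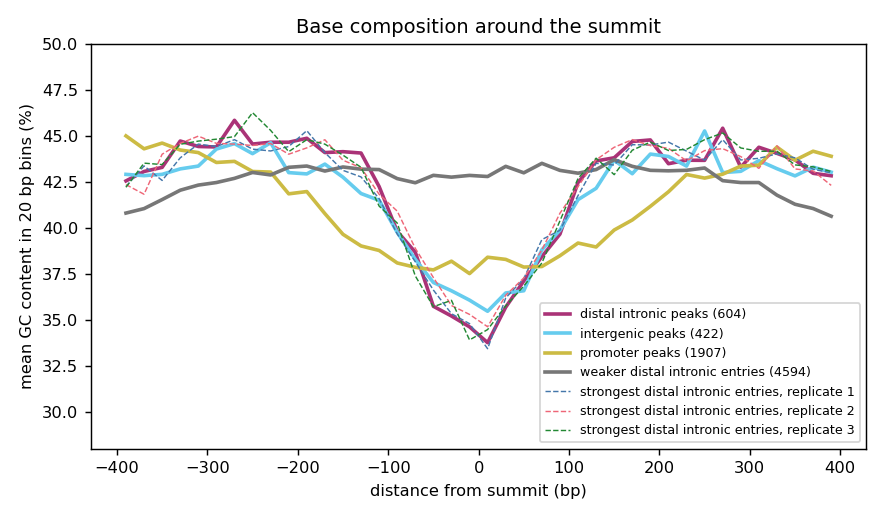
Mean G or C content in 20 bp bins (vertical axis, %) by distance from the summit (horizontal axis, bp) for the 604 distal intronic peaks, other classes, weaker entries, and the strongest distal intronic entries of each replicate (dashed). The distal intronic peaks fall to 33.8% at the summit from about 44% at 130 bp on either side, in all 3 replicates, and the weaker entries stay between 42.5% and 43.7% within 230 bp.

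Known binding motifs were sought as exact letters on either strand up to 50 bp from each summit, for 40 motifs. The share of regions with a motif was higher in the strongest than in the weaker distal intronic entries in all 3 replicates for 14 motifs, lower in all 3 for 20, and mixed for 6. No motif could pass a test with 3 replicates (exact sign-flip permutation p of 0.25 for those with 1 direction, 0.294 after Benjamini-Hochberg adjustment over the 40).

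Motifs of signal-dependent factors were found both among the 14, as for STAT and AP-1, and among the 20. The forkhead and GATA motifs, of families not limited to such factors, were also among the 14. The STAT motif TTCNNNGAA was in 5.96% of the 604 peaks, 4.74% ± 0.352 of the strongest entries and 2.51% ± 0.260 of the weaker ones (SD, n = 3). It was in 3.13% of all 3511 reproducible peaks. The AP-1 motif TGANTCA was in 4.64% of the 604, with 3.52% ± 0.356 and 2.10% ± 0.112. The forkhead motif TGTTTAC was in 5.46%, with 4.81% ± 1.22 and 2.59% ± 0.218, and the GATA motif AGATAA in 7.78%, with 8.22% ± 0.102 and 5.15% ± 0.600. All of these are motifs with at least as many A or T as G or C, and their part in a window low in G or C was not tested.

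Other motifs of factors at the end of signalling pathways were lower in 3 of 3 replicates. The Mad motif GCCGNCG, of the BMP pathway, was in 0.828% of the 604 peaks, with 1.06% ± 0.205 of the strongest and 3.56% ± 0.155 of the weaker entries (SD, n = 3). The Ets motif CCGGAAR was in 0.166%, with 0.220% ± 0.190 and 1.77% ± 0.183. The Su(H) motif GTGGGAA, of the Notch pathway, was in 0.497%, with 0.894% ± 0.0920 and 1.57% ± 0.169. Motifs of Scalloped, the serum response factor and CREB were lower too, at 0.993%, 0.166% and none of the 604, while the TCF motif CTTTGAW of the Wnt pathway was higher, at 6.13%, with 5.26% ± 0.456 and 3.45% ± 0.298.

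Other motifs rich in G or C were also among the 20. The GC box of KLF factors, GGGCGG, was in 0.993% of the 604 peaks, with 1.40% ± 0.235 of the strongest and 4.47% ± 0.607 of the weaker entries. The CACCC box CCACCC was in 1.66%, with 1.73% ± 0.230 and 5.42% ± 0.569. The GAGA repeat GAGAGAG was in 0.497%, with 0.673% ± 0.335 and 1.55% ± 0.129. Direction did not follow base content at every motif. The CTCF core AGGKGGCGC, rich in G or C, was higher in all 3 replicates. It was in 6 of the 604 peaks (0.993%), with 0.789% ± 0.377 and 0.189% ± 0.0521. The Caudal motif TTTATGR, rich in A or T, was lower in all 3. It was in 5.30% of the 604, with 5.53% ± 0.474 and 6.25% ± 0.551.

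Some motifs typical of promoters were rarer at the distal sites and others were not. The DNA replication-related element TATCGATA, bound by the core promoter factor DREF, was in 1 of the 604 peaks (0.166%) and in 4.20% of promoter peaks. The BEAF-32 core CGATA, part of the site of an insulator protein and also contained in TATCGATA, was in 11.6% against 24.4% at promoters. Intergenic peaks, at 0.474% and 12.3%, were close to the distal intronic values. The pause button KCGRWCG was in 1.82% against 3.83% at promoters. Here intergenic peaks, at 3.79%, and weaker distal intronic entries, at 4.16%, were close to the promoter value. The Initiator TCAGTY was instead more frequent at the distal intronic peaks, in 9.60% against 7.39%, and the TATA box TATAWAA was in 9.11% against 10.02%.

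The words that pointed to the summit were found by ranking. Words of 6 and of 8 letters with no more A or T than G or C were ranked on 2L and 2R by how much more often they occurred within 150 bp of distal intronic summits than of weaker entries. CACTGAGA came first among the 8-letter words, with 13.9% of 202 peaks against 3.49%. On 3L, 3R and X, which the ranking did not use, it was in 35 of 402 peaks (8.71%) and in 3.67% of weaker entries. Among the 6-letter words CACTGA, the start of CACTGAGA, came first and ACAGTG second, which on 3L, 3R and X was in 30.6% of peaks and 16.03% of weaker entries. There, 8 of the 10 leading 8-letter words and 10 of the 10 leading 6-letter words were also more frequent in the peaks. Several of them are shifted forms of CACTGAGA, such as GCACTGAG and ACTGAGAG, so the words counted are not separate. Some margins were small, as for CGTTTCAG (0.498% against 0.370%) and CAGAGA (15.4% against 14.3%). The share of all words that were more frequent is not given here. ACACTG was not among the 10 leading words of this ranking and was kept from an earlier look at all arms. All arms had been looked at before this split was made, and the words carry no test.

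CACTGAGA was shared with intergenic sites and rare at promoters. It was within 150 bp of 10.4% of distal intronic summits, 10.2% of intergenic ones, 5.47% of those in nearer introns and 2.46% of those at promoters. The strongest distal intronic entries of the replicates had 9.73% ± 1.09 and the weaker ones 2.86% ± 0.301 (SD, n = 3). The word was chosen for this difference in the same data, 2L and 2R included, so these values only describe it. Of 1424 copies in qualifying sequence, 64 (4.49%) were within 150 bp of one of the 604 summits, an area that makes up 0.432% of that sequence.

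The direction was marked. Of the 65 copies at the 604 peaks 60 pointed toward the summit and 5 away from it, at a median distance of 75.5 bp. In replicates 1, 2 and 3, 90.6%, 92.4% and 93.5% of copies at the strongest entries pointed inward, and at weaker entries 69.8%, 64.0% and 72.9%. On 2L and 2R it was 27 of 28 copies, and on 3L, 3R and X 33 of 37. ACAGTG pointed inward in 186 of 244 copies and ACACTG in 166 of 209. The inward direction of CACTGAGA was seen in the other classes too, in 45 of 47 copies (95.7%) at intergenic peaks, 26 of 31 (83.9%) in nearer introns and 38 of 47 (80.9%) at promoters. At promoters ACAGTG pointed inward in 366 of 567 copies (64.6%), and ACACTG was near even there, with 335 copies inward and 315 outward.

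**Figure D5:**
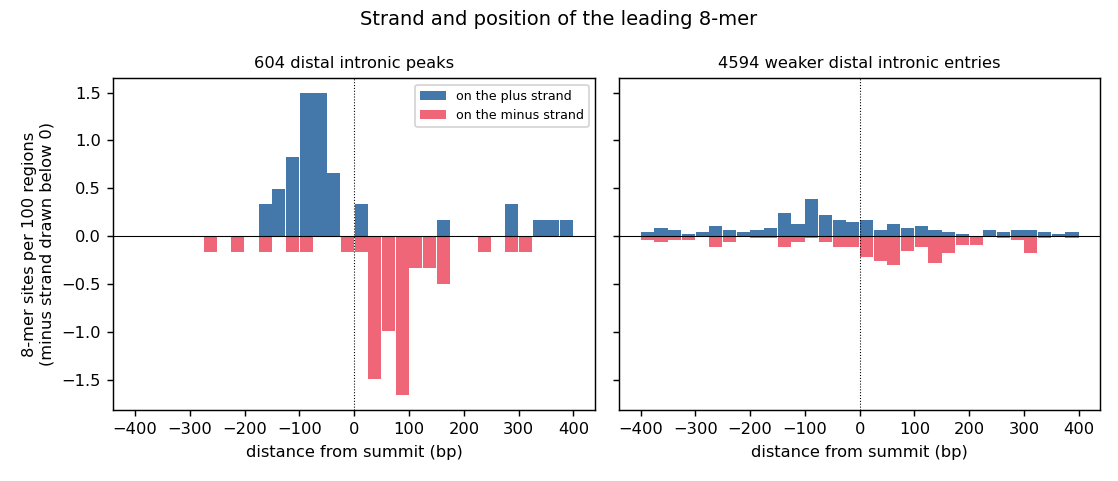
Copies of the leading 8-letter word per 100 regions (vertical axis, minus strand drawn below 0) by distance from the summit (horizontal axis, 25 bp bins) at the 604 distal intronic peaks (left) and at the 4594 weaker entries (right). At the peaks plus-strand copies stand to the left of the summit and minus-strand copies to the right, so that 60 of the 65 copies within 150 bp point inward.

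Both sides of a summit carried an inward word in 76 of the 604 peaks (12.6%), and both sides an outward word in 6 (0.993%). The strongest entries of the replicates had 11.5% ± 1.15 inward and 1.06% ± 0.205 outward, and the weaker ones 1.78% ± 0.355 and 0.557% ± 0.0431 (SD, n = 3). The words facing each other were a median of 156 bp apart, with quartiles of 145 and 174 bp. Weaker entries had the same median spacing of 156 bp, and the search window of 150 bp on either side limits what spacing can be seen.

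Peaks with inward words had a higher median signal than peaks without. The median pooled signal was 172 with words on both sides, 173 with words on 1 side and 152 in the 322 peaks with none. In replicate 1 these medians were 59.9, 59.8 and 55.3, in replicate 2 59.5, 63.1 and 54.1, and in replicate 3 55.9, 51.9 and 47.3, lowest in each for peaks with no such word. Of the peaks with words on both sides 38.2% were on X, of those with words on 1 side 22.8%, and of those with none 27.6%, so that the share on X did not follow the number of sides.

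CACTGAGA often lay in sequence that the reference marks as repetitive. Of the 65 copies 44 (67.7%) had a base in lower case in the RefSeq sequence, the mark of masked repeats, while 24.1% of qualifying sequence and 17.4% of the 604 summits were so marked. For all copies in qualifying sequence the share was 38.9%, and for copies in weaker entries 58.1%. Masked and unmasked copies pointed inward alike, 41 of 44 and 19 of 21. Annotated transposable elements held 2 of the 604 summits and 8.33% of the sequence.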

How the data were processed

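CG8944-eGFP was mapped by ChIP-seq in 3 replicates, which the labels number as separate biological replicates. The authors deposited peak lists on dm6: a relaxed list per replicate (30000, 30000 and 27393 entries), one for the pooled replicates (23886) and a reproducible list (3511) selected by irreproducible discovery rate, per the deposited file listing. Per the file format, each entry holds the authors' signal value, a score with no stated scale, and a summit offset. The sources used here name neither aligner, caller and versions nor the threshold (not given in the sources used here). Scores were used for ranks within a list, and depth is unknown. The dm3 lists were not used. One replicate 1 entry off arms 2L, 2R, 3L, 3R, 4 and X was left out.

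Genes, exons and starts came from Ensembl BDGP6.54, release 115, without transposable elements; sequence came from the RefSeq copy of the same assembly, with equal arm lengths. No RefSeq promoter or protein table was used here. Coordinates are 1-based. Each summit was classed, in this order, as promoter (500 bp from a start), exon, near intron, distal intron or intergenic. An intron's number was read in the longest transcript that holds the summit in an intron. The strongest entries of a replicate are its 3511 of highest signal, and an overlap is 1 bp or more. Differences between sets of entries were tested by an exact two-sided sign-flip permutation over 3 replicates. No test was made over peaks, which are not replicates of the study.

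The peaks named are the 20 strongest, those of the hosts with most peaks (6 hosts, ties included), the 3 farthest from a start, the 3 in the longest introns, 3 on either side of the limit, and up to 4 per gene list. Peaks, gene lists (699 names, 28 not matched in the annotation, 6 in more than 1 list, 32 of another family than the list's name) and motifs were chosen with earlier results of these data known. Steps were tested on simulated data. Python 3.11.15, numpy 2.4.6, pandas 2.3.3 and scipy 1.17.1 were used. Alternatives were other start distances, protein-coding genes only, peak midpoints, no exon overlap, the stronger part of the peaks, other sequence windows, overlaps and reference sets, and leaving out each replicate.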

Additional observations from a re-analysis of the deposited data

How the results depend on the processing

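Of 58 alternatives 27 stayed within the replicate spread or kept direction, 31 moved a value by more than it, and none reversed a direction. With 1000 bp the distal intronic share of reproducible peaks was 24.5%, the reproducible share of entries 12.8% and the density 17.8 per Mb. With 5000 bp they were 8.86%, 10.2% and 11 per Mb, and the first-intron share was 36.0% and the share with the nearest start in the host 63.0%. With protein-coding genes only, the share was 18.1%, the density 15.1 per Mb and the nearest start in the host 77.2%. In the stronger part of the peaks the share was 15.3%. The density there was 6.47 per Mb, which is lower by construction, since fewer peaks are counted over the same sequence. Counting first introns of any transcript gave 61.6%. When each replicate was left out in turn, peaks had to overlap strongest entries of both others, which keeps fewer peaks by construction. The share then ran from 15.99% to 16.4%, the reproducible share from 8.15% to 8.39%, the density from 10.4 to 10.7 per Mb, the first-intron share from 41.2% to 43.0% and the nearest start in the host from 69.8% to 70.4%. The differences in rank and in base composition kept their sign under every alternative run, and the number of motifs higher in all replicates ran from 12 to 16. Unknown depth, a signal of unstated scale and lists of at most 30000 entries limit statements on weak sites. The X to autosome ratio of 1.57 was 1.41 with the hosts of 5 or more peaks left out on every arm, chosen after seeing the data. The sign-flip tests compare sets of entries within each replicate; with 1 group, no samples could be paired across groups.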
